A study of Mus musculus with 3 samples.

Results

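The sphingosine-1-phosphate (S1P) genes were examined in endothelial cells sorted from the embryonic mouse kidney. They were 9 genes, chosen by name: the receptors S1pr1, S1pr2, S1pr3, S1pr4 and S1pr5, the sphingosine kinases Sphk1 and Sphk2, the S1P transporter Spns2 and the S1P lyase Sgpl1. All 9 were measured, out of 19938 named genes on the array, each by a single probe set that carries no other gene symbol. The cells came from CD-1 mice carrying Tg(TIE2GFP)287Sato, a transgene in which the promoter of Tek (encoding Tie2, a receptor for angiopoietins) drives green fluorescent protein. Kidneys at 15.5 dpc (Theiler stage TS23) were dissociated with trypsin, and the cells carrying GFP were sorted by flow cytometry. The 3 samples were pools of 4 to 5 embryonic kidneys each, with 1 array per pool, and they form a single group with no other tissue, age or genotype beside it. Nothing in the labels ties the pools to different litters, and no p-value below measures a spread beyond that of these arrays. Tie2 reporters can also label some blood cells, and in bulk RNA fewer cells of a type and less RNA per cell cannot be told apart.

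S1P is a lipid signal made inside cells when sphingosine, a product of ceramide breakdown, is phosphorylated by a sphingosine kinase. It leaves endothelial cells through the transporter Spns2, is carried in plasma on apolipoprotein M and albumin, and acts on a family of G protein-coupled receptors. The lyase Sgpl1 ends the signal by cleaving S1P irreversibly inside the cell. In endothelium S1pr1 is known for stabilising VE-cadherin junctions, restraining sprouting and allowing mural cells to cover new vessels.

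The deposited values are log2 intensities, and each gene was tested against a level of 100 (6.64 log2), which the study used to remove weak probe sets. A gene was called above or below this level when limma's one-sided test passed 0.05 after Benjamini-Hochberg adjustment across the 35557 probe sets. Above the level were 6 of the 9 genes, below it 2, and on neither side 1. Over all named genes the background was 41.6% above and 41.6% below. The median S1P gene lay at 7.08 log2, and the median of all named genes was 6.67. Probe sets differ in affinity, and the level of no gene was tested against that of another.

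The value of many probe sets was exactly the same in several arrays, which bears on every test here. Among the S1P genes, 5 had an identical value in all 3 arrays, 3 had an identical value in arrays 1 and 2, and S1pr1 alone had 3 different values. Over all probe sets 19.7% were identical in all 3 arrays. The SD of such a gene is 0.00, and its limma test rests on a very small error. For the 5 S1P genes this SE was 0.0038, and limma took it from all probe sets together. Calls were therefore set beside those from 1 spread pooled over all probe sets (SD 0.49 log2), which put 4 of the 9 genes above and none below, where 36.0% of named genes were above and 32.5% below. At an unadjusted p under 0.05 the pooled spread also put none of the 9 below. The pooled test treats probe sets that share the same 3 arrays as independent, so its p-values can be too small. The calls of S1pr3, S1pr5, Sphk1 and Sphk2 were lost with the pooled spread. They were also lost when each array was shifted to equal medians of the background genes described below (limma, adjusted p = 0.0583 to 0.172). For these tied genes a scaling of the arrays supplies all of the spread, so it is no separate check. With quantile normalization, and with a trended prior, 6 of the 9 genes were above and 2 below.

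**Figure D1:**
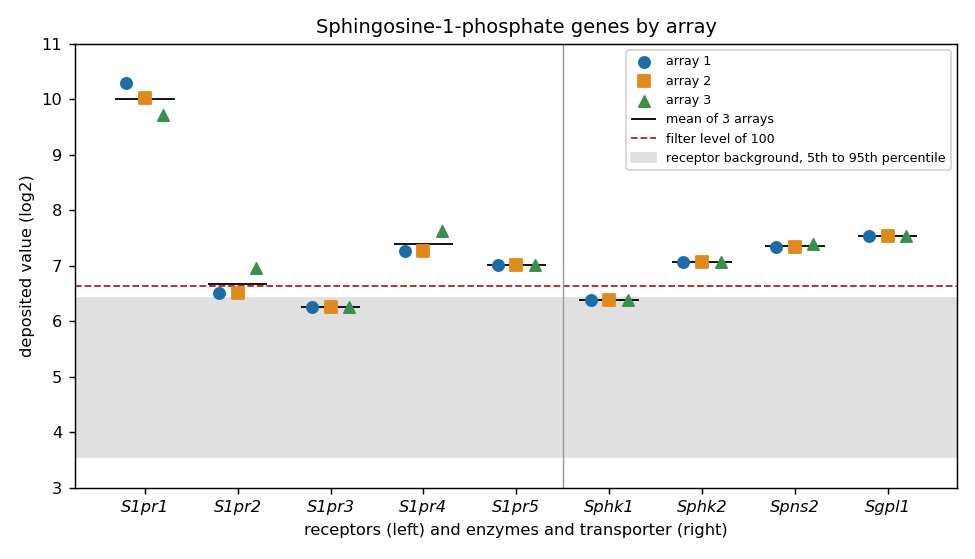
Deposited log2 value of each S1P gene (x axis) in arrays 1, 2 and 3 (points), with the mean of the 3 arrays as a bar, the filter level of 100 as a dashed line and the 5th to 95th percentile of 1194 olfactory and vomeronasal receptor genes as a grey band. S1pr1 lies between 9.71 and 10.29, and no value of the other 8 genes exceeds 7.62.

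S1pr1 stood far above the level in all 3 arrays. This receptor couples to Gi and is the main S1P receptor of endothelium. It measured 10.29, 10.02 and 9.71 log2 in arrays 1, 2 and 3, or 1254, 1037 and 839 on the linear scale. The values were spread over 0.58 log2 units, and the lowest of them was still several times the level. The mean of 10.01 ± 0.29 log2 (SD, n = 3) was 10.3 times the level, a difference of 3.36 log2 with an SE of 0.15 (limma, adjusted p = 0.00212). S1pr1 was above the level in every fit that left out 1 array (limma, adjusted p = 0.023 to 0.044) and by the pooled spread (adjusted p = 1.59e-31). It lay at the 95.6th percentile of all named genes, and no olfactory or vomeronasal receptor gene had a higher mean. These 1194 genes served as a background, since most of them are used in sensory tissue.

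S1pr2 and S1pr3 were at or under the level. S1pr2 is the receptor that couples to G12/13 and that opposes Rac-driven migration. It measured 6.52 log2 in both array 1 and array 2, under the level, and 6.97 in array 3, over it. Its mean of 6.67 ± 0.26 log2 (SD, n = 3) did not pass on either side (limma, adjusted p = 0.939 for above). Without array 3 its difference from the level was -0.12 log2 and it was called below. The values of arrays 1 and 2 are identical, so that fit had no spread, and even a small difference would be called. Only the value of array 3 lay over the level. S1pr3, a receptor of both endothelium and smooth muscle, was at 6.27 log2 (77.0 on the linear scale) in all 3 arrays and was below the level, at a difference of -0.38 log2 (limma, adjusted p = 0.000102). By the pooled spread S1pr3 did not pass (adjusted p = 0.209). Of the background receptor genes, 33 (2.76%) had a higher mean than S1pr2 and 79 (6.62%) a higher mean than S1pr3.

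S1pr4 and S1pr5, known mainly from lymphocytes and natural killer cells, were above the level by a small margin. S1pr4 measured 7.27 log2 in arrays 1 and 2 and 7.62 in array 3, and each value was over the level. Its mean of 7.39 ± 0.20 log2 (SD, n = 3) was 1.67 times the level (limma, adjusted p = 0.0195, and 0.0141 by the pooled spread). Without array 1 or without array 2 the S1pr4 call was lost (limma, adjusted p = 0.105 and 0.107). S1pr5 was at 7.01 log2 in all 3 arrays, 1.29 times the level (limma, adjusted p = 0.000128), and did not pass by the pooled spread (adjusted p = 0.25). Among the background receptor genes, 8 had a higher mean than S1pr4 and 15 a higher mean than S1pr5. Among all named genes these 2 receptors lay at percentiles 68.0 and 59.3.

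Genes that define lymphocytes and natural killer cells were low in the same arrays. Of 9 measured markers of these cells none was above the level by limma (none at an unadjusted p under 0.05, and none by the pooled spread) and 7 were below. Over all named genes 41.6% were above and 41.6% below. The T cell receptor subunit Cd3g was at 5.28 ± 0.31 log2 and the B cell gene Cd79a at 4.65 ± 0.00, while Cd3e, another T cell receptor subunit, was at 6.70 ± 0.14 and on neither side (SD, n = 3). Summed over the 9 markers on the linear scale, their level was 368, 372 and 497 in arrays 1, 2 and 3.

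The 2 sphingosine kinases lay on opposite sides of the level. Sphk1, the cytoplasmic kinase that moves to the plasma membrane on stimulation, was at 6.39 log2 (84.1 on the linear scale) in all 3 arrays. It was below the level, at a difference of -0.25 log2 (limma, adjusted p = 0.000231), but not by the pooled spread (adjusted p = 0.402). Sphk2, the kinase found largely in nucleus and mitochondria, was at 7.08 log2 (134.8 on the linear scale) in all 3 arrays. It was above the level by 0.43 log2 (limma, adjusted p = 9.62e-05), again not by the pooled spread (adjusted p = 0.173). Either kinase can make S1P. The 2 probe sets can differ in affinity, so the values do not show which kinase had more transcript.

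Export and breakdown were both represented above the level. Spns2, through which endothelial cells release S1P into plasma and lymph, measured 7.34, 7.34 and 7.40 log2. The 3 values lie within 0.06 log2 of each other. Its mean of 7.36 ± 0.04 log2 (SD, n = 3) was 1.64 times the level (limma, adjusted p = 0.000755, and 0.0187 by the pooled spread). Sgpl1, the lyase, was at 7.53 log2 (185.3 on the linear scale) in all 3 arrays, 1.85 times the level (limma, adjusted p = 3.03e-05, and 0.003 by the pooled spread). Spns2 and Sgpl1 were above the level without any single array, the largest adjusted p being 0.0233 for Spns2 and 0.00917 for Sgpl1 (limma). For Sgpl1 these fits are no check, since its value is the same in every array and its mean could not change. Without array 3 the remaining values of Spns2 are identical, so that fit had no spread. Of the 1194 background receptor genes, whose median was 4.82 log2, 8 and 5 had higher means than Spns2 and Sgpl1. Among all named genes Spns2 lay at percentile 67.3 and Sgpl1 at percentile 71.0.

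**Figure D2:**
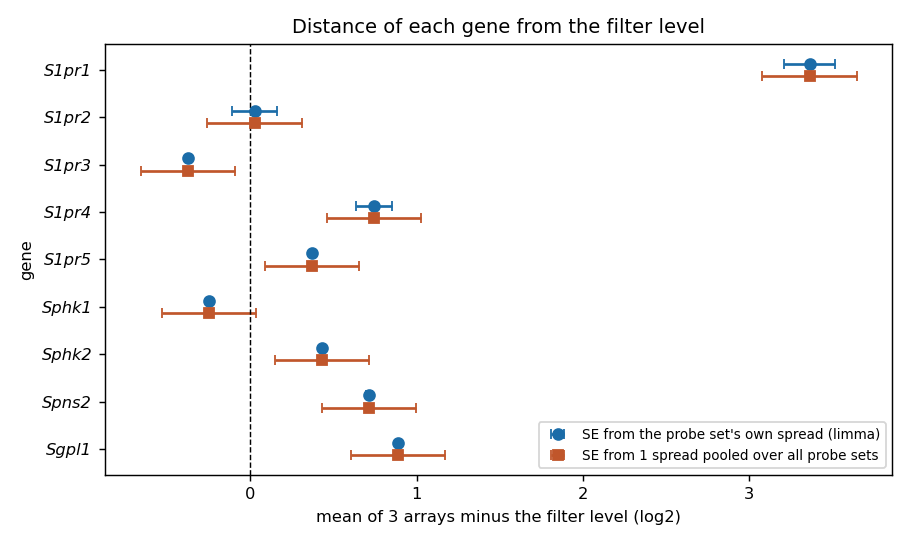
Mean of 3 arrays minus the filter level of 100, in log2, for each S1P gene (y axis), drawn with the SE from the gene's own spread (circles, limma) and with the SE from 1 spread pooled over all probe sets (squares). S1pr1 lies at 3.36, and the other 8 genes lie between -0.38 and 0.89, where the pooled SE of 0.28 decides several calls.

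The wider pathway was described by 5 gene lists, of which 77 of 83 genes were measured. Of these, 50 were above the level and 15 below (43 and 11 by the pooled spread), against the 41.6% of named genes on either side. The median of the 77 genes was 7.54 log2. The lists were drawn up with earlier results of these data known, so their counts are a description. The share of all named genes (41.6% above and 41.6% below, or 36.0% and 32.5% by the pooled spread) stands beside each list count below.

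Of 29 measured genes that supply ceramide and sphingosine, 16 were above the level and 8 below. Above it were the serine palmitoyltransferase subunits that begin sphingolipid synthesis, Sptlc1 (7.22 ± 0.05 log2) and Sptlc2 (10.04 ± 0.00), the small subunit Sptssa (12.25 ± 0.08) and the regulator Ormdl1 (7.38 ± 0.22). The alternative subunits Sptlc3 (5.50 ± 0.03) and Sptssb (4.78 ± 0.00), the ceramide synthase Cers3 (5.53 ± 0.34), known from skin, and the desaturase Degs2 (5.85 ± 0.00) were below (SD, n = 3). By the pooled spread 15 were above and 7 below, and Sptlc1 did not pass.

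Among 13 phosphatases, carriers and further transporters 9 were above the level and 2 below (5 and 1 by the pooled spread). The S1P phosphatase Sgpp1 was at 7.20 ± 0.00 log2, though not above by the pooled spread, and its relative Sgpp2 was below at 5.97 ± 0.10 (SD, n = 3). The lipid phosphate phosphatases Plpp1 and Plpp3, which can dephosphorylate S1P outside the cell, were at 10.48 ± 0.02 and 8.67 ± 0.82, and Plpp2 at 6.67 ± 0.00 was above only by its own spread. Apom, whose protein carries S1P in plasma and is made mainly in liver and kidney epithelium, was below at 6.16 ± 0.00, though not by the pooled spread. Mfsd2b, the S1P exporter of red cells and platelets, was at 6.65 ± 0.06 and on neither side, and is named here after its values were seen.

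The G proteins that S1P receptors use are widely expressed signalling proteins. The level was exceeded by 19 of 23 measured coupling genes, with 1 below (17 and 1 by the pooled spread). The Gi subunits, through which S1pr1 signals, were at 7.03 ± 0.00 log2 for Gnai1, 11.20 ± 0.81 for Gnai2 and 9.53 ± 0.32 for Gnai3, and the Gq subunit Gnaq was at 7.81 ± 0.29 (SD, n = 3). Gnai1 was not above by the pooled spread. The phospholipase Plcb2, known from blood cells, was the gene below the level, at 5.64 ± 0.00.

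Of 7 genes that regulate S1pr1 or act with it, 4 were above and 2 below (4 and 1 by the pooled spread). Klf2, a shear-responsive factor that drives S1pr1 transcription in lymphocytes, measured 8.79, 8.79 and 8.72 log2. VE-cadherin Cdh5, whose junctions S1pr1 stabilises, measured 11.57, 11.23 and 10.43, and Dnm2, which takes part in S1pr1 endocytosis, 9.10, 9.25 and 8.15. All 3 of these genes were above the level with either spread, and Klf2 varied least between arrays. Stat3 was at 7.23 ± 0.00 log2 and above only by its own spread, while Nos3, an endothelial enzyme activated downstream of S1P, was at 7.53 ± 0.39 and above only by the pooled spread (SD, n = 3). Below the level were Cd69, a leukocyte protein that removes S1pr1 from the cell surface, at 4.60 ± 0.00, and N-cadherin Cdh2, which joins endothelial to mural cells, at 6.37 ± 0.00, and Cdh2 was not below by the pooled spread.

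Receptors for lysophosphatidic acid (LPA), another lysophospholipid signal, include Lpar1, Lpar2 and Lpar3, which belong to the same family as the S1P receptors. Of 5 measured genes, all of them receptors, 2 were above and 2 below (2 and 1 by the pooled spread). These counts were near the shares of all named genes (41.6% above and 41.6% below). Lpar4, from a separate branch of LPA receptors and known for a role in vessel formation, measured 10.91, 9.85 and 9.46 log2. Lpar6 of the same branch was at 8.65 in all 3 arrays. Lpar2 (6.40 ± 0.00) and Lpar3 (5.50 ± 0.15) were below, Lpar2 not by the pooled spread, and Lpar1 (6.53 ± 0.17) was on neither side (SD, n = 3).

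**Figure D3:**
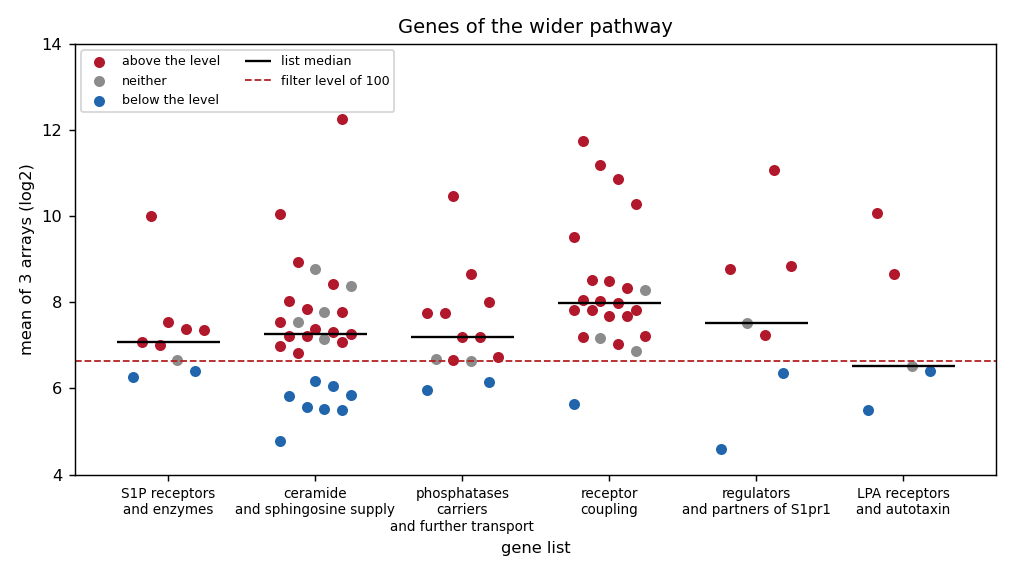
Mean log2 value over 3 arrays of each measured gene in the S1P set and in 5 lists of the wider pathway, coloured by its call against the filter level of 100 (dashed line), with a bar at each list's median. The S1P median is 7.08, and the list medians run from 6.53 (LPA receptors and autotaxin) to 7.99 (receptor coupling). Autotaxin itself was not measured.

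Array 3 stood apart from the other arrays. Its correlation with arrays 1 and 2 across probe sets was 0.923 and 0.927, that between arrays 1 and 2 was 0.976, and its values were spread less widely (SD 1.84 against 2.08 and 2.06). All 15 pan-endothelial markers were lower in array 3 than the mean of arrays 1 and 2, with a median difference of -0.97 log2, and 12 of 13 macrophage markers were higher, by a median of 0.87. The endothelial junction gene Pecam1 was at 10.49, 10.37 and 9.40 log2, and the macrophage gene Cd68 at 7.30, 8.95 and 8.82. On the linear scale the pan-endothelial markers summed to 21550, 18820 and 10940 and the macrophage markers to 1349, 3075 and 5157 in arrays 1, 2 and 3. By limma 13 pan-endothelial markers were above the level (15 by the pooled spread) and none below (none at an unadjusted p under 0.05 or by the pooled spread), while 1 of the macrophage markers was above (7 by the pooled spread). That gene was Cx3cr1, named after its values were seen. Of 8 mural markers 7 were below the level (4 by the pooled spread), among them Pdgfrb at 5.87 ± 0.00 log2, and the smooth muscle actin gene Acta2 (named after its values were seen) had 7.21 ± 0.00 log2 and passed upward with its own spread alone (SD, n = 3). Of 7 stroma markers 4 were above and 2 below (2 and 2 by the pooled spread), and 4 were higher in array 3 and none lower, with a list median of 0.33 log2. The stromal factor Foxd1 measured 7.46, 7.68 and 8.48 log2. Of 5 nephron progenitor markers 3 were above and 2 below (2 and 1 by the pooled spread). Six2 and Cited1 were above by either spread at 7.37 ± 0.12 and 7.28 ± 0.00 log2 (SD, n = 3). Eya1 was below at 6.27 ± 0.00, though not by the pooled spread. Osr1 (named after its values were seen) was below by either spread at 5.93 ± 0.00. Of 6 ureteric bud markers 2 were above and 3 below, against 0 and 1 by the pooled spread (0 above also at an unadjusted p under 0.05), and 4 were higher in array 3 and 1 lower. Platelets and red cells are sources of plasma S1P, and of 4 megakaryocyte and platelet markers 1 was above the level and 2 below (1 and 0 by the pooled spread, with 0 below also at an unadjusted p under 0.05). The gene above was Pf4, at 9.27, 9.34 and 10.63 log2. Ppbp (6.29 ± 0.10 log2) and Gp9 (6.44 ± 0.09, named after its values were seen) were below, and Itga2b (6.96 ± 0.27) was on neither side (SD, n = 3). In array 3, 3 of the 4 were higher and Ppbp was lower. Of 6 red cell markers 2 were above and 3 below (0 and 3 by the pooled spread, with 1 above at an unadjusted p under 0.05). Over all named genes 41.6% were above and 41.6% below (36.0% and 32.5% by the pooled spread). Each of these marker lists holds few genes, so their counts are a description.

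The S1P genes divided into 3 patterns between arrays. S1pr1 was lower in array 3 than the mean of arrays 1 and 2, with a difference of -0.44 log2. It was smaller in size than the pan-endothelial median and within the range of those 15 markers (-2.0 to -0.083). Of these markers only Cldn5 (named after its values were seen), at -0.083, fell less than S1pr1, and Egfl7 came next at -0.57. Of 775 other genes within 0.5 log2 of S1pr1, 78.5% were also lower in array 3, with a median of -0.30. S1pr2 and S1pr4 were higher in array 3, by 0.45 and 0.35 log2, and Spns2 by 0.06. For S1pr2, 90.2% of the 5416 genes of like level had a lower difference, and for S1pr4 93.2% of 4260. Background receptor genes were higher in array 3 as well, by a median of 0.30 log2, and the lymphocyte and natural killer markers by 0.44. So were the macrophage markers (0.87), the stroma markers (0.33), the megakaryocyte and platelet markers (0.31) and the ureteric bud markers (0.13). The mural, nephron progenitor and red cell lists had a median difference of 0.00. The other 5 genes, S1pr3, S1pr5, Sphk1, Sphk2 and Sgpl1, had the same value in every array, as had 37.1% of genes of like level for S1pr3 and 25.8% for Sgpl1.

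These array differences depended on the scaling and were not tested, since each array is a single sample. With quantile normalization the S1pr1 difference was -0.09 log2, and with the background medians made equal it was -0.83. S1pr2 was then at 0.48 and 0.06, and S1pr4 at 0.56 and -0.040, so that the direction of S1pr4 changed with the second. That second scaling moves the median of all named genes to -0.39 log2 in array 3. It shifts every gene of an array by the same amount. A gene's difference relative to that median therefore could not change, and this scaling gives no check of it. Whether the cell makeup or the background of array 3 had a part in the S1P values was not tested.

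**Figure D4:**
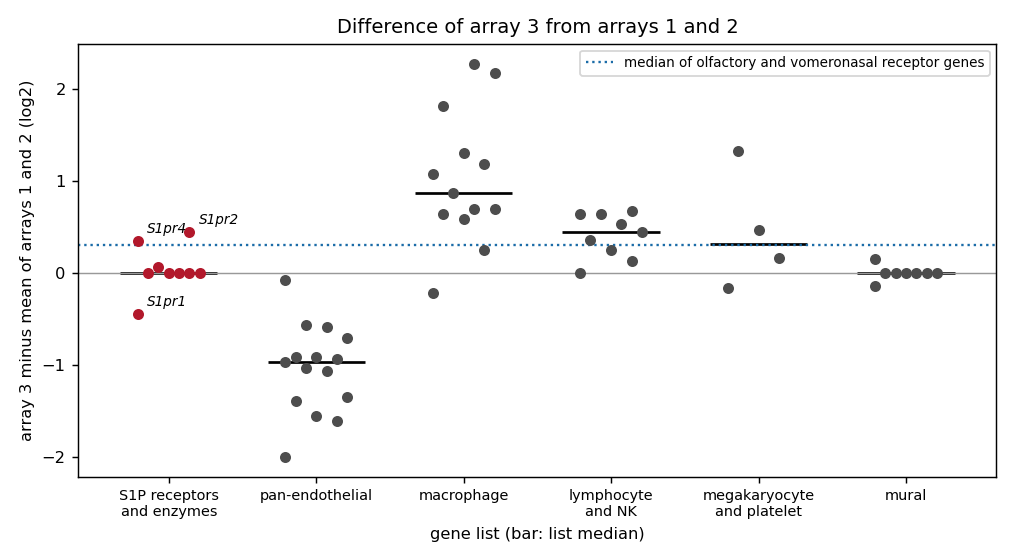
Value in array 3 minus the mean of arrays 1 and 2, in log2, for each gene of the S1P set and of 5 marker lists (x axis), with a bar at each list's median and a dotted line at the median of olfactory and vomeronasal receptor genes (0.30). S1pr1 lies at -0.44, S1pr2 at 0.45 and S1pr4 at 0.35, while all 15 pan-endothelial markers lie below 0.

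The genes whose differences between arrays most resembled those of S1pr1 were sought among the 157 other measured genes of all lists. Likeness was the Euclidean distance between the genes' deviations from their own means over the 3 arrays. The nearest were the alkaline ceramidase Acer2 (distance 0.06 log2), the GTPase Rhoa (0.07), the desaturase Degs1 (0.09), the GTPase Rac1 (0.12) and the endothelial factor Egfl7 (0.13). S1pr1 deviated by 0.29, 0.01 and -0.30 log2 in arrays 1, 2 and 3 and Acer2 by 0.31, 0.03 and -0.34. With 3 arrays such likeness is common: 310 of the other 19937 named genes were at least as close as Egfl7.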

How the data were processed

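The deposited table holds log2 intensities of Affymetrix Mouse Gene ST arrays, which the authors made with Affymetrix Expression Console per the labels. No source used here states how this table was summarized, whereas the study names RMA in GeneSpring for its own analysis. RNA went through 1 round of NuGEN WT-Pico amplification. No array build is stated, so no positions are printed. Precision is limited by the 3 arrays.

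Gene names came from the platform annotation (21789 with 1 symbol, 1621 with several, 12147 unnamed here), and 21698 symbols were updated by gene identifier in a RefSeq table. A gene's value was the mean of its probe sets. It was above the level if any probe set was and below only if all were. The level test was an intercept-only limma 3.58.1 fit with eBayes in R 4.3.3, checked on simulated data without ties. That check does not cover genes whose values are identical between arrays. Python 3.11.15, numpy 2.4.6, pandas 2.3.3 and matplotlib 3.10.9 did the rest. The alternatives were levels of 50 and 200, a pooled spread, a trended prior, other scalings, other sets of tested probe sets, and leaving out each array. Named genes were all S1P genes, the first 4 above and below the level in list order (all of the short lists) and the 5 genes nearest S1pr1. Of most marker lists, though not of the red cell and ureteric bud lists, 1 or more of the first markers were named. Other names are marked. Members and lists were chosen with earlier results of these data known.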

Additional observations from a re-analysis of the deposited data

How the results depend on the processing

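S1pr1 stayed above the level in all 11 alternatives. At a level of 50, 21712 probe sets were above and 5305 below, no S1P gene and 4 pathway genes were below, and S1pr3 and Sphk1 lay 0.62 and 0.75 log2 over it. At a level of 200, 5510 probe sets were above and 22955 below, 1 S1P gene was above and 7 below, and 17 pathway genes were above and 33 below. S1pr2, S1pr4, S1pr5, Sphk2, Spns2 and Sgpl1 then lay at -0.98, -0.26, -0.63, -0.57, -0.29 and -0.11 log2. With the pooled spread, and likewise with equal background medians, 4 S1P genes were above and 0 below by limma's or the pooled test. At an unadjusted p under 0.05 these were 0 below with the pooled spread and 1 with equal background medians. Testing only the 21789 single-symbol probe sets left 8906 below. Testing probe sets of at least 100 in 1 array left 0 probe sets, 0 S1P genes and 0 pathway genes below, by construction for most. Leaving out 1 array, with 2 arrays left, gave 7712 to 11688 probe sets above and 8738 to 15179 below, 28 to 43 pathway genes above and 9 to 16 below. Of the S1P genes 5 to 6 were above and 2 to 3 below. The 3 below came without array 3, where S1pr2 was at -0.12 log2. Its 2 remaining values were identical, so that call rests on no spread. The 5 S1P genes identical in all 3 arrays kept their means in each of these fits, which therefore do not check them. The median array 3 difference of the S1P genes was 0.10 log2 with quantile normalization and -0.39 with equal background medians, where S1pr4 was at -0.040 and Spns2 at -0.33. The cause of these changes was not tested, except that a moved level moves counts and a smaller set of tested probe sets leaves fewer to call. No paired analysis was possible because the samples form a single group.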

Other observations

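Exact ties were not evenly spread over the arrays. Arrays 1 and 2 held the same value for 50.6% of all probe sets, arrays 1 and 3 for 21.7% and arrays 2 and 3 for 23.0%. Among the S1P genes, arrays 1 and 2 were identical for 8 of 9. Ties were most frequent near the filter level, where most S1P genes lie. Of 8461 probe sets with a mean between 6 and 7 log2, 30.7% had the same value in all 3 arrays, as had 21.8% of 6202 between 7 and 8, and 6.97% of 2410 between 10 and 15.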
